A study of Mus musculus with 6 samples.

Results

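The genes described here encode the protein folding machinery of the endoplasmic reticulum (ER) and the sensors of the unfolded protein response. They form a list of 41 genes chosen by name, with earlier results of these data known. All 41 were found by symbol among the 22375 rows of the expression table. They were placed in 5 groups by known role, namely 14 chaperones and their cofactors, 12 enzymes of oxidative folding and peptidyl-prolyl isomerases, 10 components of ER-associated degradation, 4 sensors and transcription factors, and Sec61b of the translocon. Of these genes, 40 had a mean of at least 0.5 FPKM (the usual unit of fragments scaled by transcript length and by the mapped fragments of the library) over the 6 libraries and were tested. Derl3, which encodes a derlin of the degradation channel, had means of 0.168 FPKM in the control and 0.109 FPKM in the stretched libraries and was not tested.

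The libraries came from C2C12 cells, an immortalised line of mouse myoblasts, which are the dividing precursors of muscle fibres. The CON group (3 libraries) was not stretched and the 4H group (3 libraries) was cyclically stretched at 15% elongation for 4 h, a cell model of mechanical overload. Per the study's methods, cells to be stretched were seeded on elastic plates coated with poly-lysine, whether CON cells grew on the same plates is not stated, and no genetic change or drug was named for either group. Polyadenylated RNA was sequenced in strand-specific paired-end libraries. The shorter stretch times of the study were not analysed here.

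Proteins that enter the secretory pathway are folded in the ER lumen by chaperones, and their disulfide bonds are formed by protein disulfide isomerases that the ERO1 oxidases recharge. Proteins that fail to fold are taken back to the cytosol and destroyed, a process called ER-associated degradation. The membrane sensors ATF6, IRE1 and PERK respond to unfolded protein, the first by release of a transcription factor, the second by splicing of Xbp1 mRNA and the third by slowing translation, and together they raise chaperone genes and lower the load. Muscle precursors secrete matrix proteins, collagens among them, that pass through this machinery.

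Many promoters of ER chaperone genes carry the ER stress response element (ERSE), in which CCAAT and CCACG stand on either side of 9 bases of any kind. A second form, ERSE-II, has ATTGG and CCACG with 1 base between them. The promoters of Hspa5, Hsp90b1, Calr, Creld2 and Pdia6 are shown because these genes hold such a match and are among the most abundant or most raised of those that do. That of Herpud1 is shown because it holds a match and the gene fell, and that of Ero1a because it fell most and held no match. Each runs from 250 bases before to 50 bases after the transcription start that RefSeq annotates, 5′ to 3′ on the strand of the gene, in the build GRCm38.p6. Capitals mark the matches to ERSE, on either strand, and in Herpud1 the match to ERSE-II (the second run of capitals) and to the amino acid response element TGATGNAAN (the first run, on the opposite strand).
Hspa5 (chr2:34771840-34772139, plus strand): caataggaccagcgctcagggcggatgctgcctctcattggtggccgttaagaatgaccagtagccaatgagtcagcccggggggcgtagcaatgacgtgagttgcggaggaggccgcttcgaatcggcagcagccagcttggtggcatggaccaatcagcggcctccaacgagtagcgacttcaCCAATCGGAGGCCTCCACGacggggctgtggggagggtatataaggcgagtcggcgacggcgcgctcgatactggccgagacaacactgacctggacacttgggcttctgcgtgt
Hsp90b1 (chr10:86705395-86705694, minus strand): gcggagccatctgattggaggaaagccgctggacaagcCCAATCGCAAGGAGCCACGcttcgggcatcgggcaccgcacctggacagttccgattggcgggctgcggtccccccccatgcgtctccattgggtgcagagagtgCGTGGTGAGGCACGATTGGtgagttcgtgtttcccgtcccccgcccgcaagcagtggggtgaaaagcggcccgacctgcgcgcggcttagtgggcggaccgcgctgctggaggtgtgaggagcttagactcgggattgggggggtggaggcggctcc
Calr (chr8:84846882-84847181, minus strand): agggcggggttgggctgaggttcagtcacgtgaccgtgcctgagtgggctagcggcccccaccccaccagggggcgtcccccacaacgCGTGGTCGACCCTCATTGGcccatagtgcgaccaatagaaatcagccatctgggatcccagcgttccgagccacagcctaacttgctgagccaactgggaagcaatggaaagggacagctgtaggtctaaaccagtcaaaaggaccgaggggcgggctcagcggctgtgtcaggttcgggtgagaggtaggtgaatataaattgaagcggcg
Creld2 (chr15:88819396-88819695, plus strand): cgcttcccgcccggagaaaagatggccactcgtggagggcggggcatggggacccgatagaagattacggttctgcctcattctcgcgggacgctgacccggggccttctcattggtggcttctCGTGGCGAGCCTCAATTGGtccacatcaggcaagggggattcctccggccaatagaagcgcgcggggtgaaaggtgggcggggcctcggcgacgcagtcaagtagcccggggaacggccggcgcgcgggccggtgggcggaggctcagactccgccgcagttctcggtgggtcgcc
Pdia6 (chr12:17266339-17266638, plus strand): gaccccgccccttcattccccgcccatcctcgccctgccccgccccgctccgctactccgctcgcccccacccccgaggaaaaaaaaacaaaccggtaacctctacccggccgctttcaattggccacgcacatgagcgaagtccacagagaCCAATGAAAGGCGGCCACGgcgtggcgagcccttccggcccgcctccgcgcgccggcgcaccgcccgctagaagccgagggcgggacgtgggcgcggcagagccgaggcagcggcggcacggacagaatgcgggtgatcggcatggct
Herpud1 (chr8:94386179-94386478, plus strand): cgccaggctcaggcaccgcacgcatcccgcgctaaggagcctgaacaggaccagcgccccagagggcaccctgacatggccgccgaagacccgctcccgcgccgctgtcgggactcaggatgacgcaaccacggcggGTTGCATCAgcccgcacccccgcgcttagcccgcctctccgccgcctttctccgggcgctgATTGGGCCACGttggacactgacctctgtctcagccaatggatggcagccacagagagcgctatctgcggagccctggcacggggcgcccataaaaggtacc
Ero1a (chr14:45318523-45318822, minus strand): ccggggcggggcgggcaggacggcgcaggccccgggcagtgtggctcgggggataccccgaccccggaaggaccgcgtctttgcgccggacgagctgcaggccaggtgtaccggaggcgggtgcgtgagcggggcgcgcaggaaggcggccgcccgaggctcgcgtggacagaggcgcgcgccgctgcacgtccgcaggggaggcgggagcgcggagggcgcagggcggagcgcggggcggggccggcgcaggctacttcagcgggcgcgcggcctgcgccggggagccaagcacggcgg

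The members moved in both directions after 4 h of stretch. Of the 14 chaperones and cofactors 10 were higher in 4H, led by Creld2, Sdf2l1 and Hsp90b1, and several disulfide isomerases were higher too, led by Pdia6. The oxidase gene Ero1a and the degradation genes Herpud1 and Sel1l were lower, and no sensor gene passed the test as higher. Between CON and 4H, 20 of the 40 tested members rose and 8 fell at a limma adjusted p of at most 0.05 (two-sided, Benjamini-Hochberg over 11593 genes), while 12 did not pass. Over all genes tested, 22.6% were higher and 24.1% lower by the same rule. The median log2 fold change (4H against CON, on the log2(FPKM + 0.5) scale) was 0.16 over the members and -0.01 over all genes tested. The study also asked for a log2 fold change of 1 or more in size. By this stricter rule 1 member was lower (Ero1a), and 0 were higher because no rise reached 1, against 1.28% lower and 2.61% higher over all genes tested. The libraries of CON and 4H did not overlap in 30 tested members, against 56.7% of all genes tested. Most changes were small, and the median absolute log2 fold change was 0.28 in the members and 0.19 over all genes.

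**Figure D1:**
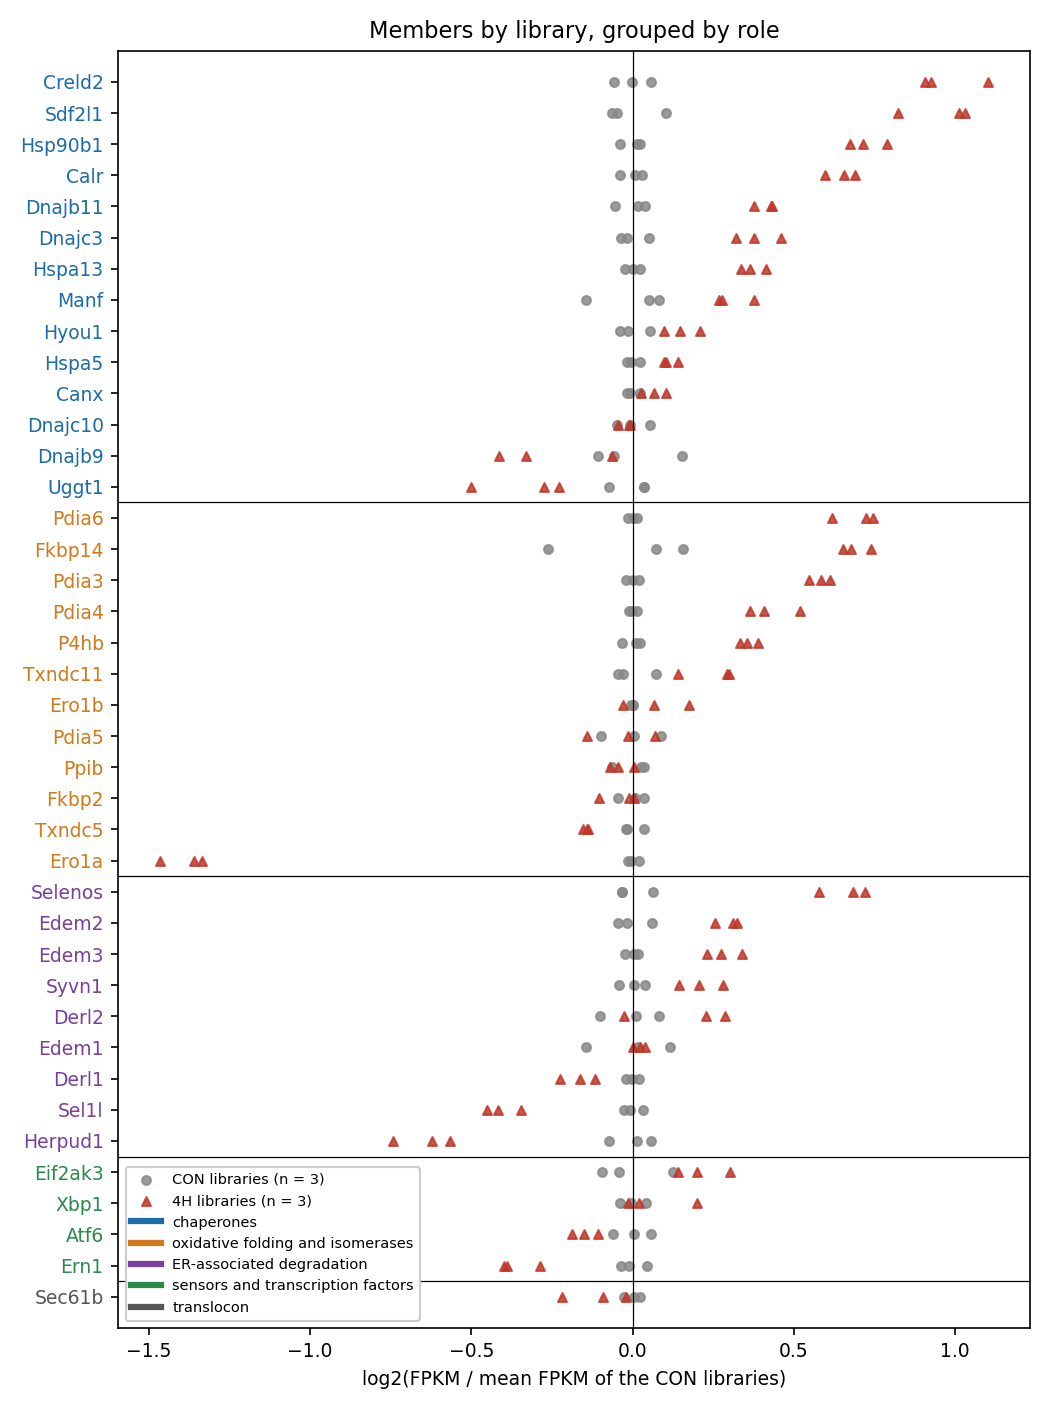
Each row is 1 of the 40 tested members and each point 1 library, placed by the log2 ratio of its FPKM to the mean FPKM of the CON libraries (grey circles, CON, n = 3; red triangles, 4H, n = 3), with gene names coloured by role. Creld2 and Sdf2l1 stand farthest to the right and Ero1a farthest to the left, and in most chaperones the 4H points lie to the right of the CON points.

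Libraries of the same group correlated at 0.992 to 0.993 (Pearson, log2(FPKM + 0.5)) and libraries of different groups at 0.967 to 0.970, and no columns were identical. The FPKM of a library summed to between 395790 and 397260 in CON and between 385146 and 387516 in 4H. The labels do not say whether the replicates came from separate cultures, so the p-values measure the spread between these libraries, which may be technical. The myoblast label was borne out by its markers, of which 6 of 7 had a mean of at least 0.5 FPKM (Pax7 was the exception). Their summed level was 1974 to 2051 FPKM in CON and 2984 to 3215 FPKM in 4H, and nearly all of it was Vim (means of 1863 and 2832 FPKM), an intermediate filament gene that other mesenchymal cells also express. Of the factors that define myogenic cells, Myod1 had means of 5.13 and 18.2 FPKM, Myf5 of 15.8 and 9.82 FPKM and Pax7 of 0.452 and 0.429 FPKM in CON and 4H. The summed markers of differentiated muscle stayed at or below 2.74 FPKM. Those of epithelium stayed at or below 0.553 FPKM, those of adipocytes, endothelium, leukocytes and neurons at or below 0.137 FPKM, and Epcam, Ptprc, Adgre1, Rbfox3 and Plin1 were listed at 0 in every library. The part that these differences between markers have in the results below was not tested, and in bulk RNA fewer cells of a type and less RNA per cell cannot be told apart.

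Levels of the members spanned a wide range, from Calr at 408.9 ± 9.77 FPKM (SD, n = 3) in CON down to Ero1b at 4.05 ± 0.0106 FPKM among those tested. FPKM is scaled by transcript length, so these levels were set beside each other. The annotation behind those lengths is not given, so the order between genes is approximate, and replicate ranges do not measure this. In CON, calreticulin (Calr) was followed by BiP (Hspa5), GRP94 (Hsp90b1), protein disulfide isomerase (P4hb), cyclophilin B (Ppib) and calnexin (Canx), and the ranges of these neighbours did not overlap. Of the 40 neighbouring pairs in the order of all members, 18 had overlapping CON libraries, most of them below 25 FPKM. In 4H, Hsp90b1 passed Hspa5 and stood second. The ratio of Hsp90b1 to Hspa5 within a library was 0.833 ± 0.0156 (SD, n = 3) in CON and 1.27 ± 0.0310 (SD, n = 3) in 4H, without overlap.

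The members together summed to 2928 ± 28.1 FPKM (SD, n = 3) in CON and 3594 ± 81.4 FPKM (SD, n = 3) in 4H, a ratio of 1.23. As a share of all FPKM in the library they made up 0.739% ± 0.00633 in CON and 0.930% ± 0.0209 in 4H. The summed chaperones had a 4H to CON ratio of 1.34, the oxidative folding enzymes and isomerases 1.18, the degradation genes 0.903 and the sensors 0.973. Calr, Hsp90b1, Pdia3, P4hb and Pdia6 made up 629.5 of the net difference of 666.7 FPKM between the groups, which is 94.4%. Their share of the rises alone is lower, because falls reduce the net, among them Ero1a (-40.7 FPKM) and Herpud1 (-35.7 FPKM). Hspa5, the second most abundant member in CON, differed by 27.6 FPKM. The summed degradation genes without Herpud1 had a 4H to CON ratio of 1.06, above 1, so the lower sum of that group came from Herpud1. The sums thus describe mainly a few members, and they carry no test.

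**Figure D2:**
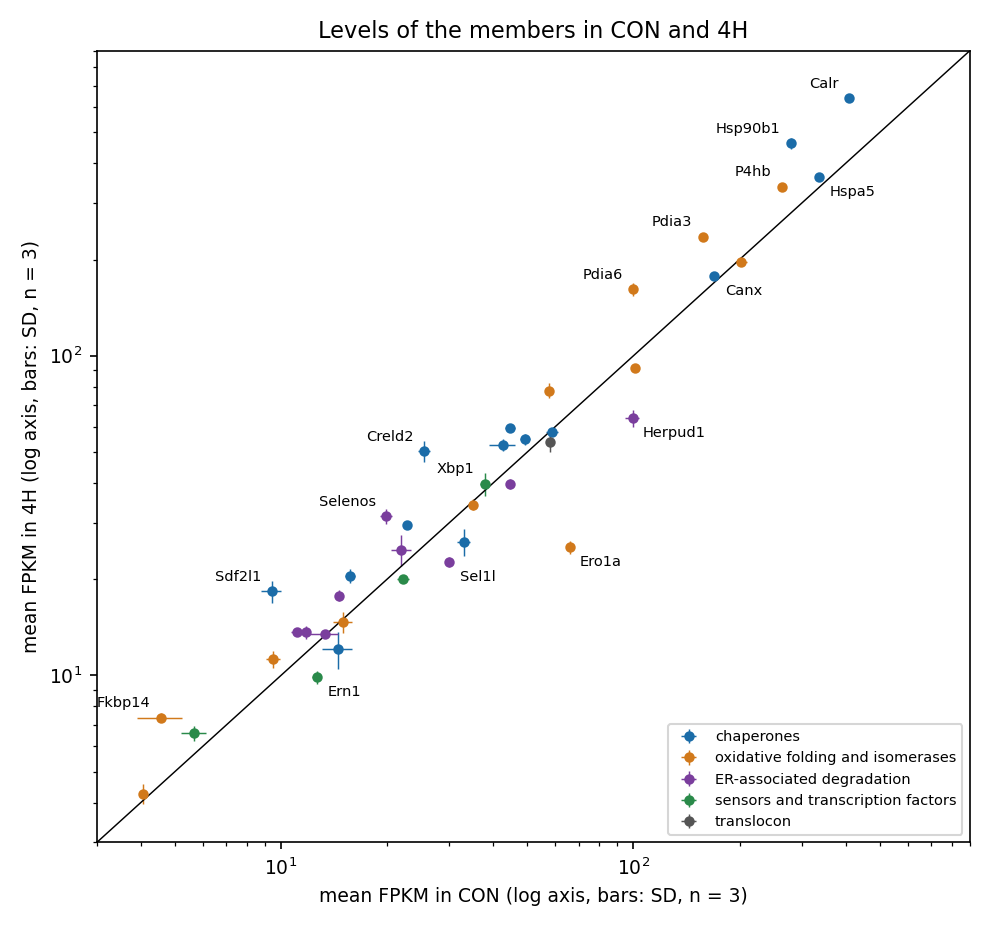
Mean FPKM of each tested member in CON (x axis) and 4H (y axis), both on log axes, with bars for the SD (n = 3) and colours for the roles. The line marks equal levels, with Calr, Hsp90b1, Pdia3 and Pdia6 above it at high abundance and Ero1a, at 65.9 FPKM in CON and 25.2 FPKM in 4H, far below it.

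Among the 14 chaperones and cofactors, 10 rose, 1 fell and 3 did not pass, with a median log2 fold change of 0.34, beside 22.6% of all genes tested that were higher and 24.1% that were lower. Creld2, an ER-resident protein with epidermal growth factor-like domains that is secreted under ER stress, had 25.4, 24.5 and 26.5 FPKM in the CON libraries and 48.4, 47.8 and 54.7 FPKM in the 4H libraries. All 4H libraries were above all CON libraries. Creld2 rose by 0.97 on the log2 scale (SE 0.06, limma adjusted p = 5.58e-06), from 25.4 ± 1.01 to 50.3 ± 3.83 FPKM (SD, n = 3). The rise stood just under the fold threshold of the study, and reached 1.01 with libraries rescaled to TPM (the unit in which every library has the same total) and 1.00 without 4H replicate 2.

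Sdf2l1, a cofactor that works with BiP and its J-domain partners, had 9.10, 9.01 and 10.1 FPKM in CON and 16.7, 19.0 and 19.2 FPKM in 4H. These libraries did not overlap either, and the log2 fold change was 0.92 (SE 0.07, limma adjusted p = 2.51e-05). Hsp90b1, which encodes GRP94, the HSP90 of the ER with integrins and Toll-like receptors among its clients, had 271.9, 284.1 and 282.4 FPKM in CON and 459.0, 446.5 and 482.6 FPKM in 4H. Every 4H library was above every CON library by a wide margin, and the log2 fold change was 0.73 (SE 0.03, limma adjusted p = 1.67e-06). Exons of Hsp90b1 overlap those of annotated genes on both strands, and those of Manf and Pdia4 overlap a gene on the same strand. Exons of Derl2, Dnajb9, Eif2ak3, Fkbp14, Manf, Pdia3, Pdia6, Ppib, Syvn1, Txndc11 and Txndc5 overlap a gene on the other strand, and no source used here says whether counting used the strand, so reads of such pairs may not be told apart.

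Calr and Hspa5 were added after their values were seen, as the most abundant chaperones in CON. Calr, the soluble lectin chaperone of glycoproteins and a calcium store, had 398.1, 417.2 and 411.2 FPKM in CON and 644.2, 618.4 and 659.0 FPKM in 4H, without overlap. It rose by 0.65 (SE 0.03, limma adjusted p = 1.91e-06). Canx, its membrane-bound relative, had means of 169.5 ± 2.45 and 177.3 ± 4.799 FPKM (SD, n = 3) and did not pass (log2 fold change 0.06, limma adjusted p = 0.110), but it passed with libraries rescaled to TPM (adjusted p = 0.0259) and with quantile normalization (adjusted p = 0.0391). The ratio of Calr to Canx was 2.41 ± 0.0318 in CON and 3.61 ± 0.0230 in 4H (SD, n = 3).

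Hspa5 encodes BiP, the HSP70 of the ER, which also holds the stress sensors inactive and whose mRNA is the usual readout of the unfolded protein response. It had 331.5, 334.0 and 340.9 FPKM in CON and 360.5, 359.0 and 369.7 FPKM in 4H. The groups did not overlap, yet the step between them was small, with a log2 fold change of 0.11 (SE 0.03, limma adjusted p = 0.00679). Under limma without trend the adjusted p was 0.0542, and with quantile normalization the log2 fold change of Hspa5 was 0.21.

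The J-domain cofactors of BiP differed among themselves. Dnajb11, which hands substrates to BiP, rose from 44.5 ± 1.49 to 59.3 ± 1.27 FPKM (SD, n = 3), a log2 fold change of 0.41 (limma adjusted p = 5.67e-05). Dnajc3, also known as p58IPK, rose by 0.38 (adjusted p = 0.000546). Dnajc10, a reductase with a J domain, had a log2 fold change of -0.02 (adjusted p = 0.682). Dnajb9, which keeps IRE1 in check, had one of -0.26 (adjusted p = 0.0678), and it passed without 4H replicate 2 (log2 fold change -0.35, adjusted p = 0.0146).

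Of the other chaperones, Hspa13, a relative of HSP70 in microsomes, rose by 0.37 (limma adjusted p = 0.000146), and Manf, a secreted factor that binds BiP, rose by 0.31 (adjusted p = 0.00449). Hyou1, the large HSP70 that exchanges nucleotide on BiP, rose by 0.15 (adjusted p = 0.0186), and its adjusted p was 0.0539 without CON replicate 2, 0.0660 without CON replicate 3 and 0.0610 without 4H replicate 3. Uggt1, which adds glucose back to misfolded glycoproteins so that the lectin chaperones bind them again, was the only chaperone gene that fell. It had 33.7, 33.8 and 31.4 FPKM in CON and 28.1, 23.3 and 27.2 FPKM in 4H, with all 4H libraries below all CON libraries (log2 fold change -0.33, SE 0.07, limma adjusted p = 0.00620).

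Among the 12 enzymes of oxidative folding and isomerases, 6 rose, 2 fell and 4 did not pass, with a median log2 fold change of 0.15, beside 22.6% higher and 24.1% lower over all genes tested. Pdia6, a disulfide isomerase that also acts on the IRE1 sensor, had 98.8, 100.7 and 99.8 FPKM in CON and 153.2, 164.6 and 167.4 FPKM in 4H. The CON libraries lay close together and all 4H libraries were above them (log2 fold change 0.69, SE 0.04, limma adjusted p = 2.98e-06). Fkbp14, a prolyl isomerase that acts on collagens, had 3.81, 5.10 and 4.802 FPKM in CON and 7.19, 7.30 and 7.63 FPKM in 4H. Its level was low and its CON libraries spread more than its 4H libraries, without overlap (log2 fold change 0.64, SE 0.10, limma adjusted p = 0.00119). Pdia3, the disulfide isomerase that pairs with calreticulin and calnexin, had 157.4, 154.9 and 159.5 FPKM in CON and 236.1, 230.0 and 240.2 FPKM in 4H. No CON library came near the 4H libraries, and the log2 fold change was 0.58 (SE 0.03, limma adjusted p = 1.68e-06).

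Pdia4, an isomerase with an additional thioredoxin-like domain, rose by 0.43 (limma adjusted p = 9.57e-05), and P4hb, the classical protein disulfide isomerase and a subunit of collagen prolyl 4-hydroxylase, rose from 263.5 ± 5.46 to 338.0 ± 6.77 FPKM (SD, n = 3; log2 fold change 0.36, adjusted p = 2.38e-05). Txndc11, a thioredoxin-domain partner of the EDEM proteins, rose by 0.23 (adjusted p = 0.0176). Its adjusted p was 0.0532 without CON replicate 2, 0.0593 without CON replicate 3, 0.0593 without 4H replicate 2 and 0.0583 without 4H replicate 3. Pdia5, Ppib, Fkbp2 and Ero1b did not pass, with log2 fold changes between -0.04 and 0.06. Of the 75-base stretches of the transcripts, 12.2% in Ero1b, 5.86% in Sec61b, 4.67% in Ppib, 4.16% in Derl1, 2.72% in Dnajb9 and 0.41% in Hsp90b1 recur in other genes, so part of the reads of these members may be shared.

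Ero1a encodes the oxidase that passes oxidising equivalents to protein disulfide isomerase. It lies at chr14:45283087-45318771 on the minus strand (GRCm38, GENCODE M21). It had 66.8, 65.6 and 65.2 FPKM in CON and 25.7, 26.1 and 23.8 FPKM in 4H. Every 4H library was far below every CON library, and the replicates of each group lay close together. Ero1a fell by 1.37 on the log2 scale (SE 0.04, limma adjusted p = 1.88e-07), to 0.382 of its CON mean, and was the only member past the thresholds of the study in the values as deposited. Over the 15 alternatives of processing its log2 fold change ran from -1.40 to -1.33.

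Ero1a fell while its substrate P4hb rose. The ratio of Ero1a to P4hb within a library went from 0.250 ± 0.00846 in CON to 0.0746 ± 0.00482 in 4H (SD, n = 3). Ero1b, the second ERO1 oxidase, had 4.05 ± 0.0106 FPKM in CON and 4.26 ± 0.306 FPKM in 4H (SD, n = 3), with overlapping libraries. Ero1a thus stood 16.3 ± 0.182 times above Ero1b in CON and 5.93 ± 0.284 times above it in 4H (SD, n = 3). Txndc5, a disulfide isomerase with several thioredoxin-like domains, had 99.66, 103.7 and 99.97 FPKM in CON and 90.9, 91.7 and 91.8 FPKM in 4H. The 4H libraries lay below all CON libraries by a small margin, and it fell by 0.14 (SE 0.03, limma adjusted p = 0.00415).

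**Figure D3:**
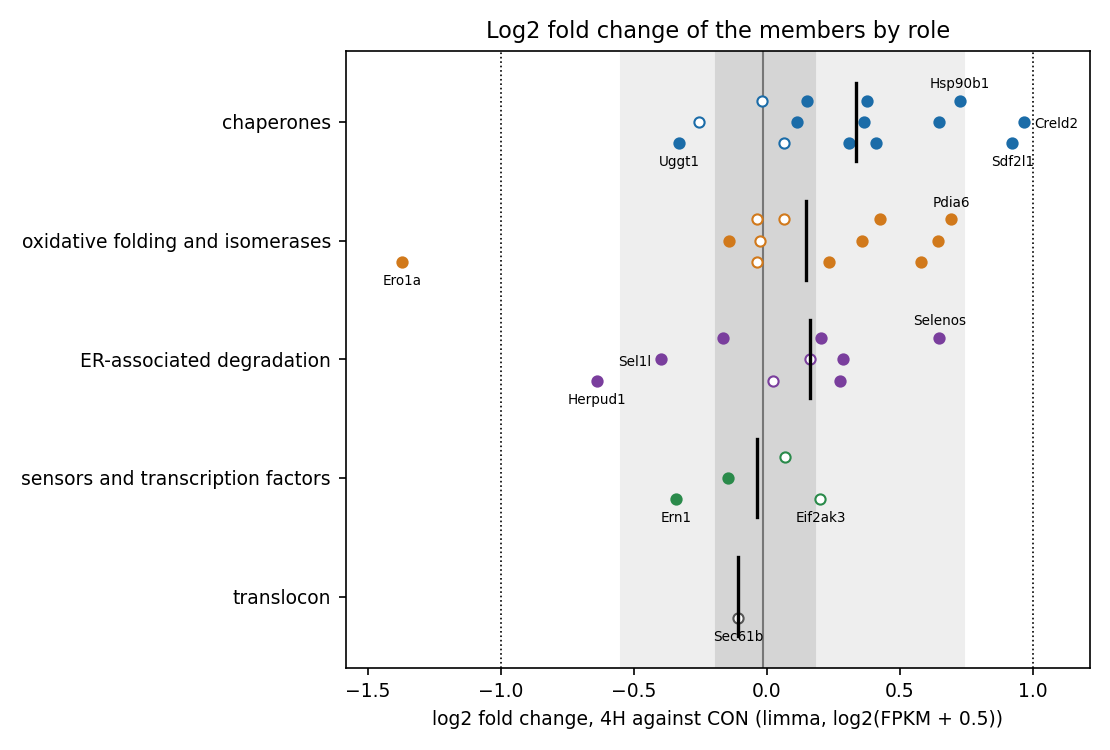
Log2 fold change (4H against CON, limma on log2(FPKM + 0.5)) of the tested members by role, with filled points for those at an adjusted p of at most 0.05, open points for the others and a black bar for the median of each role. The dark band spans the 25th to the 75th and the light band the 5th to the 95th percentile of all genes tested, the grey line is their median and the dotted lines mark the fold threshold of the study, which only Ero1a passed. The vertical offset of points within a role has no meaning.

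Among the ER-associated degradation genes, 9 were tested, of which 4 rose, 3 fell and 2 did not pass, with a median log2 fold change of 0.16, beside 22.6% higher and 24.1% lower over all genes tested. The median was 0.10 without 4H replicate 3 and 0.0921 without a filter on low values, which adds Derl3. The rises and falls were of like size. Selenos, a selenoprotein that brings the extraction ATPase p97 to the ER membrane, had 19.4, 19.4 and 20.8 FPKM in CON and 32.8, 29.6 and 31.9 FPKM in 4H. No libraries overlapped, and it rose by 0.65 (SE 0.05, limma adjusted p = 2.59e-05).

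The EDEM proteins trim mannose from misfolded glycoproteins and so mark them for destruction. Edem2 had 10.8, 10.99 and 11.6 FPKM in CON and 13.8, 13.9 and 13.3 FPKM in 4H (log2 fold change 0.29, SE 0.05, limma adjusted p = 0.00241). Edem3 had 14.4, 14.7 and 14.8 FPKM in CON and 17.2, 17.7 and 18.5 FPKM in 4H (log2 fold change 0.27, SE 0.05, limma adjusted p = 0.00177). Both were higher in every 4H library, whereas Edem1 had 13.3 ± 1.21 and 13.5 ± 0.183 FPKM (SD, n = 3), with overlapping libraries, and did not pass (log2 fold change 0.02, adjusted p = 0.806).

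Syvn1 and Sel1l encode the membrane ubiquitin ligase HRD1 and its adaptor, which work as one complex, and they went apart. Syvn1 rose by 0.20 (limma adjusted p = 0.0159), a call lost without CON replicate 3 (adjusted p = 0.0555) or 4H replicate 3 (adjusted p = 0.0546). Sel1l had 29.4, 29.8 and 30.7 FPKM in CON and 21.9, 22.5 and 23.6 FPKM in 4H. All its 4H libraries were lower, and it fell by 0.40 (SE 0.04, limma adjusted p = 0.000144). The ratio of Sel1l to Syvn1 was 2.55 ± 0.119 in CON and 1.67 ± 0.0582 in 4H (SD, n = 3), without overlap.

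Herpud1 encodes a short-lived ubiquitin-like membrane protein that assembles HRD1 complexes, and it lies at chr8:94386438-94395377 on the plus strand (GRCm38, GENCODE M21). It had 103.4, 94.5 and 100.4 FPKM in CON and 64.7, 67.1 and 59.4 FPKM in 4H. The 4H libraries were all far below the CON libraries, and Herpud1 fell by 0.64 (SE 0.05, limma adjusted p = 3.20e-05), to 0.641 of its CON mean. Derl1, a derlin of the channel through which substrates leave, had 44.5, 45.2 and 44.0 FPKM in CON and 39.8, 38.2 and 41.1 FPKM in 4H, without overlap. It fell by 0.17 (SE 0.04, limma adjusted p = 0.00828). Derl2 did not pass (log2 fold change 0.16, adjusted p = 0.153), but it did without 4H replicate 1 (log2 fold change 0.25, adjusted p = 0.0149).

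Of the 4 sensors and transcription factors, 0 rose at a limma adjusted p of at most 0.05 (1 was higher at an unadjusted p of at most 0.05), 2 fell and 2 did not pass, with a median log2 fold change of -0.04 (-0.08 without 4H replicate 1), beside 22.6% higher and 24.1% lower over all genes tested. Ern1, which encodes the kinase and ribonuclease IRE1, had 13.0, 12.3 and 12.5 FPKM in CON and 9.58, 10.4 and 9.64 FPKM in 4H. All 4H libraries were below all CON libraries, and it fell by 0.34 (SE 0.05, limma adjusted p = 0.00127). Atf6, whose product is cut in the Golgi to free a transcription factor, had 23.1, 21.3 and 22.3 FPKM in CON and 20.6, 20.0 and 19.5 FPKM in 4H. The groups did not overlap but came close, and Atf6 fell by 0.15 (SE 0.05, limma adjusted p = 0.0335). This call was lost under 6 alternatives, with adjusted p of 0.108 without CON replicate 1, 0.0841 without CON replicate 3, 0.0779 without 4H replicate 2, 0.0977 without 4H replicate 3, 0.0936 after rescaling to TPM and 0.0503 under limma without trend.

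Eif2ak3, the gene of the kinase PERK, had 5.31, 6.18 and 5.51 FPKM in CON and 6.26, 6.99 and 6.52 FPKM in 4H. Its libraries did not overlap, but the difference did not pass (log2 fold change 0.20, SE 0.08, limma adjusted p = 0.0677). It passed without CON replicate 2 (adjusted p = 0.0362) and after rescaling to TPM (adjusted p = 0.0425). Xbp1, the transcription factor whose mRNA IRE1 splices, had 36.8, 38.9 and 37.7 FPKM in CON and 43.4, 37.4 and 38.3 FPKM in 4H. The groups overlapped and 1 of the 4H libraries stood above the rest (log2 fold change 0.07, SE 0.06, limma adjusted p = 0.371). A level per gene does not show which share of Xbp1 mRNA was spliced, nor the phosphorylation of IRE1 or PERK or the cleavage of ATF6. Sec61b, a small subunit of the channel through which new proteins enter the ER, had 58.0 ± 1.06 and 53.9 ± 3.73 FPKM (SD, n = 3) and did not pass (log2 fold change -0.11, adjusted p = 0.116), but it did without 4H replicate 3 (adjusted p = 0.0370).

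The promoters shown above were read against those of the other members. In the RefSeq promoter table, 36 of the 41 members were matched by symbol. ERSE was found in 10 of them, Calr, Canx, Creld2, Derl3, Dnajc3, Ero1b, Hsp90b1 (with 2 matches), Hspa5, Pdia6 and Syvn1. Over the whole table, counted by gene in the same way, it was found in 37 of 27025 genes (0.137%), or in 39 of 32851 promoters (0.119%). ERSE-II was found in Dnajb11 and Herpud1, against 0.0444% of all genes and 0.0365% of all promoters. The core of the unfolded protein response element, TGACGTGG, was found in Txndc11 and Txndc5 (0.714% of all genes, 0.676% of all promoters), and the amino acid response element, to which ATF4 and its partners bind, in Herpud1 and Txndc5 (4.5% of all genes, 3.95% of all promoters). Both strands were searched, and ERSE and ERSE-II share CCACG.

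Matches to ERSE in the promoters shown stood between 212 and 47 bases before the start, at -65 to -47 in Hspa5, -162 to -144 in Calr, -98 to -80 in Pdia6 and -126 to -108 in Creld2. Of the 12 members with an ERSE or ERSE-II match, 11 were tested, of which 8 rose, 1 fell (Herpud1) and 2 did not pass, with a median log2 fold change of 0.38. Of the 24 without one, 9 rose, 5 fell and 10 did not pass, with a median of 0.05, and their share that fell was near the 24.1% of all genes tested (22.6% were higher). Within the 12 the range was wide, from -0.64 in Herpud1 through 0.06 in Canx and Ero1b and 0.11 in Hspa5 to 0.97 in Creld2, and Sdf2l1 at 0.92 had no match in this window. Only exact matches were counted, so members with a near match are among those without one. A match is a description of the letters in the window and not of binding, and no test was run on the split.

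**Figure D4:**
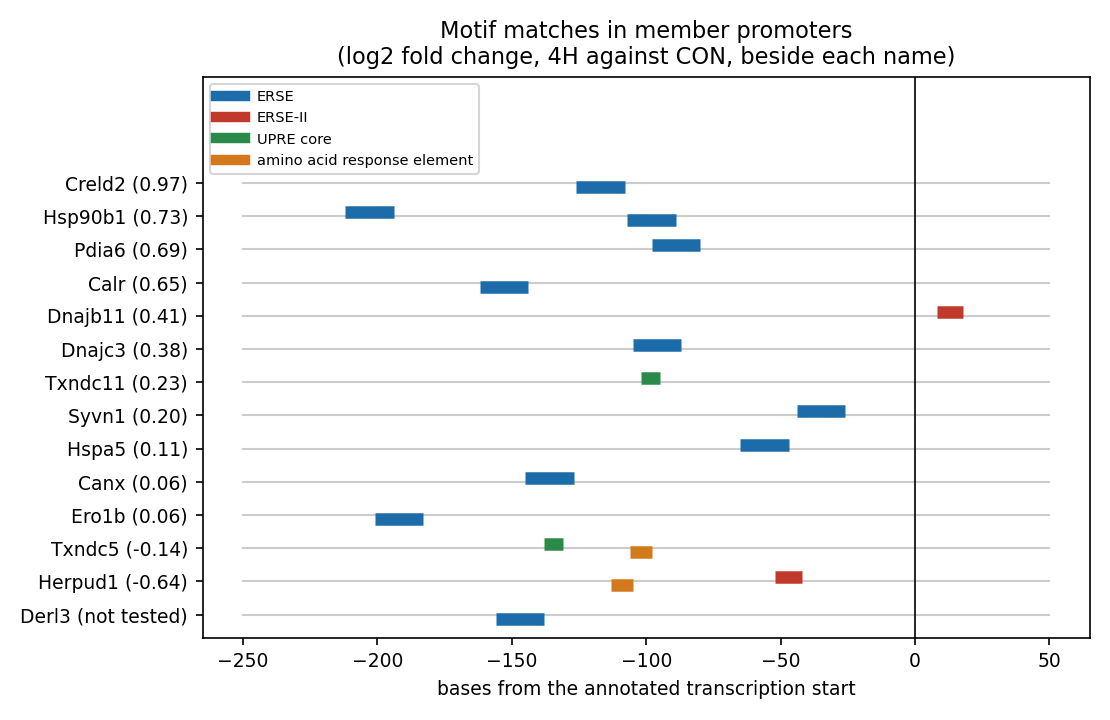
Position of motif matches in the promoters of the 14 members that held one, in bases from the annotated transcription start (x axis), with bars above the line for the strand of the gene and below it for the opposite strand. Members are ordered by their log2 fold change (4H against CON), given beside each name, and ERSE matches are found from Creld2 at 0.97 down to Ero1b at 0.06 and in Derl3, which was not tested.

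The pathway was followed further in other genes that act with the members, listed by role and chosen with earlier results of these data known. Of 107 such genes 105 were tested, and 34 rose, 29 fell and 42 did not pass by the same limma rule, with a median log2 fold change of 0.02. These counts and those of the lists below stand beside the 22.6% higher and 24.1% lower over all genes tested. The list of the PERK arm holds transcription factors and targets that are induced when PERK or a related kinase slows translation, together with Eif2s1, the subunit that PERK phosphorylates, and Ppp1r15b, a constitutive phosphatase subunit. Of its 9 genes 8 fell and 0 rose (0 also at an unadjusted p of at most 0.05), with a median of -1.08. Ppp1r15b fell by only 0.17, with a limma adjusted p of 0.0338, close to the limit, and Eif2s1 did not pass. Atf4, the factor at the head of this arm, had 420.9, 414.6 and 413.7 FPKM in CON and 197.7, 211.8 and 185.4 FPKM in 4H. It fell by 1.07 (SE 0.05, limma adjusted p = 9.06e-07), without overlap between groups.

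Ddit3, the stress factor CHOP, had 94.7, 90.2 and 93.9 FPKM in CON and 31.7, 32.6 and 30.3 FPKM in 4H, and fell by 1.54 (SE 0.04, limma adjusted p = 8.18e-08). Trib3, a pseudokinase that CHOP and ATF4 induce, had 98.9, 94.6 and 94.7 FPKM in CON and 22.6, 21.4 and 17.6 FPKM in 4H, and fell by 2.21 (SE 0.08, limma adjusted p = 4.90e-07). Both were lower in every 4H library by a wide margin, while exons of Ddit3 overlap those of Mars on the other strand and those of Ppp1r15a overlap Tulp2. Chac1, a glutathione-degrading enzyme, fell by 1.22 (adjusted p = 3.28e-05), Ppp1r15a, which restores translation, by 1.15 (adjusted p = 2.24e-06), and Nupr1, a small stress-induced nuclear protein, by 1.08 (adjusted p = 6.07e-06). These 6 genes were the only ones in the lists past the thresholds of the study.

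Of the 6 genes for ER-bound transcription factors and the proteases that free them, 2 rose and 3 fell. Creb3l2, a factor of secretory capacity and collagen export, had 5.15, 5.42 and 5.40 FPKM in CON and 9.95, 8.85 and 9.38 FPKM in 4H, and rose by 0.76 (SE 0.07, limma adjusted p = 4.33e-05). Mbtps1, the site-1 protease that cuts ATF6, had 44.2, 43.3 and 44.0 FPKM in CON and 32.2, 31.7 and 31.7 FPKM in 4H, and fell by 0.45 (SE 0.03, limma adjusted p = 1.41e-05). Neither pair of groups overlapped. Of 6 mRNAs known to be cut by IRE1 in other cells, 2 rose and 2 fell, with Col6a1, a collagen chain, at 0.29 (adjusted p = 0.00534) and Scara3, a scavenger receptor, at -0.48 (adjusted p = 0.0157). The call of Scara3 was lost without CON replicate 2 (adjusted p = 0.0513) or 4H replicate 2 (adjusted p = 0.0510), which left 1 that fell.

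Further ER oxidoreductases and isomerases moved both ways, with 5 of 20 higher and 9 lower. Gpx8, a peroxidase of the ER that consumes hydrogen peroxide made by ERO1, had 74.7, 81.6 and 82.7 FPKM in CON and 151.8, 142.3 and 152.6 FPKM in 4H, and rose by 0.90 (SE 0.05, limma adjusted p = 2.58e-06). Ppic, a cyclophilin of the secretory pathway, had 96.7, 97.2 and 96.3 FPKM in CON and 65.9, 72.1 and 65.6 FPKM in 4H, and fell by 0.51 (SE 0.04, limma adjusted p = 2.86e-05). The libraries of the groups did not overlap in either gene. Of 18 further genes of ER-associated degradation, 6 rose and 3 fell, with the lectin gene Erlec1 highest at 0.38 (adjusted p = 0.00687) and the ubiquitin ligase gene Rnf139 lowest at -0.20 (adjusted p = 0.0171). The call of Rnf139 was lost without CON replicate 2 (adjusted p = 0.0571), CON replicate 3 (adjusted p = 0.0547) or 4H replicate 1 (adjusted p = 0.0549), and without CON replicate 2 the number of this list that fell was 1.

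**Figure D5:**
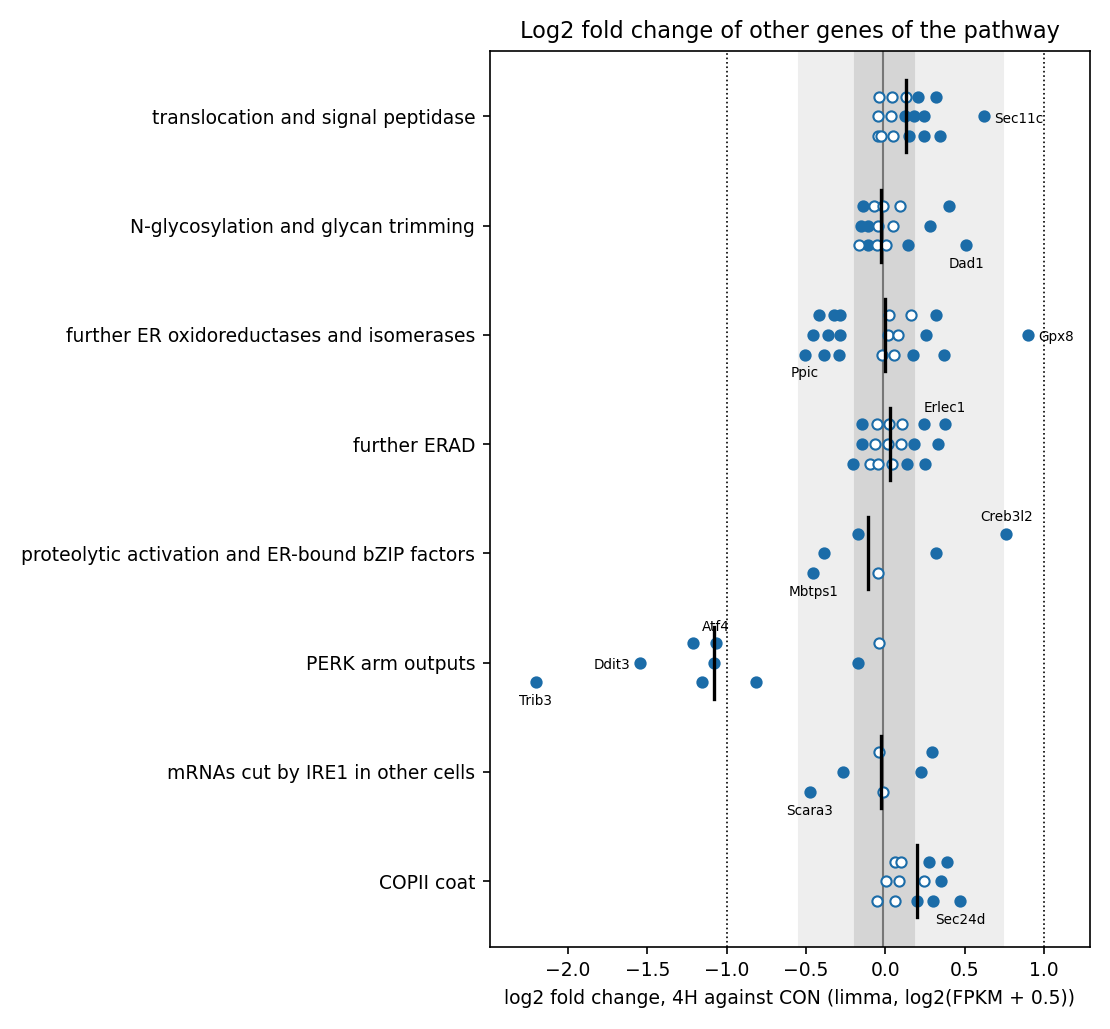
Log2 fold change (4H against CON, limma on log2(FPKM + 0.5)) of 105 other genes of the pathway in 8 lists, with filled points for an adjusted p of at most 0.05, open points for the others, black bars for list medians, bands and lines for all genes tested as in the plot of members by role. The genes of the PERK arm lie mostly to the left, 6 of them past the dotted line of the fold threshold, while the medians of the other lists lie between -0.11 and 0.20.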

How the data were processed

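Gene levels in 6 C2C12 libraries (3 CON, 3 4H) were taken from 1 table of FPKM values that the authors deposited, with symbols and Ensembl identifiers. The submitters' processing notes name the build mm10. For the aligner, counting tool, annotation and use of strand: not given in the sources used here. FPKM holds no counts and so no count test was run. Steps in genes below 0.1 FPKM put the relative depths of the 15 library pairs within 1.55% of each other (12 to 23 genes a pair), but absolute depth is unknown. Only small differences in depth were searched for, so a large one would not have been found.

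Groups came from the sample labels. The 11593 genes whose mean reached 0.5 FPKM were compared by limma 3.58.1 in R 4.3.3 (lmFit, eBayes with trend) on log2(FPKM + 0.5), two-sided with Benjamini-Hochberg adjustment over all of them, in place of the count model of the study. This scale understates the change of low genes. The limma script was checked on simulated data. With 3 against 3 libraries an exact permutation test of a single value cannot go below p = 0.1, so none is given.

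Members and lists were chosen with earlier results of these data known. Values in every library were given for the 3 largest rises and falls in each role, for all sensors and for members past the study's thresholds, and in other lists the largest rise and fall and every gene past those thresholds were named. A second row of Ddit3 with another identifier, at 0 in every library, was left out. Exon overlaps and recurring 75-base stretches came from GENCODE M21, promoters from RefSeq (GRCm38.p6). Alternatives were pseudocounts of 0.1 and 1, no filter or a mean of 1 FPKM, quantile normalization, median-of-ratios scaling, rescaling to TPM, limma without trend, a replicate block and each library left out in turn. Protein features were not analysed here.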

Additional observations from a re-analysis of the deposited data

How the results depend on the processing

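Over 15 alternatives, 30 of the 40 tested members kept their call throughout. Among these, 5 that did not pass changed sign (Dnajc10, Edem1, Fkbp2, Pdia5 and Ppib). Counted over members and alternatives 16 calls were lost, 7 were gained and 0 reversed. The number of members that rose was 19 to 22 (17 to 21 with 1 library left out, against 20) and the number that fell 7 to 8 (7 to 8 with 1 left out). Members past the study's thresholds numbered 2 after rescaling to TPM (Creld2 joined Ero1a) and 1 to 2 with 1 library left out. With 1 library left out, 1 to 2 chaperones fell, 0 to 1 sensors rose and 1 to 2 sensors fell. After rescaling to TPM 1 sensor rose and 1 fell, and under limma without trend 1 fell. The median log2 fold change of the members was 0.19 after TPM rescaling and 0.18 after quantile normalization (0.11 to 0.19 with 1 library left out), that of the chaperones 0.38 after TPM rescaling (0.30 to 0.36), that of the oxidative folding group 0.19 after TPM rescaling (0.14 to 0.17), that of the degradation genes 0.20 after TPM rescaling and 0.0921 without a filter, which adds Derl3 (0.10 to 0.20), and that of the sensors -0.0033 after TPM rescaling (-0.0812 to -0.0172). For the other genes of the pathway it was 0.0581 after TPM rescaling, 0.0324 after median-of-ratios scaling and 0.0495 after quantile normalization (0.0105 to 0.0341). Of those genes 29 to 39 rose (29 to 33 with 1 library left out, against 34). The number that fell was 25 to 29 (24 to 28 with 1 left out, against 29). After TPM rescaling the median of all genes went from -0.01 to 0.03. Rescaling came before the filter and the pseudocount, so this setting also changed how these acted. The cause of the shifts was not tested.

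With the replicate block, 20 members rose and 8 fell, and Ero1a kept a log2 fold change of -1.37 (limma adjusted p = 1.42e-05). Deviations of same-numbered CON and 4H libraries correlated at 0.02, -0.09 and -0.13, so the numbers were not taken to pair the libraries. Replicate numbers follow the sample descriptions, and the titles number the 4H libraries otherwise (4H1, 4H3 and 4H4). By title, the libraries numbered 3 in both groups (4H replicate 2 here) correlated at 0.18 and those numbered 1 at 0.02. The depth behind each value is not in FPKM, which limits low genes such as Fkbp14 and Derl3 most.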

Other observations

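The steps before and after folding were described in the same way, beside 22.6% of all genes tested that were higher and 24.1% that were lower. Of 17 genes for protein entry into the ER and signal peptide removal, 9 rose and 0 fell by the same limma rule (0 also fell at an unadjusted p of at most 0.05), with a median log2 fold change of 0.13. The number that rose was 6 without CON replicate 1, CON replicate 3 or 4H replicate 3 and under limma without trend. Sec11c, a catalytic subunit of the signal peptidase, had 18.7, 17.8 and 16.04 FPKM in CON and 24.5, 26.6 and 30.8 FPKM in 4H, without overlap, and rose by 0.62 (SE 0.09, limma adjusted p = 0.000684). Of 16 genes of N-glycosylation and glycan trimming, 4 rose, 4 fell and 8 did not pass, with a median of -0.03. This median was -0.0451 without 4H replicate 2 and 0.0053 after TPM rescaling. The number that fell was 2 without CON replicate 1, CON replicate 3 or 4H replicate 2, and also 2 with the replicate block, after TPM rescaling or quantile normalization and under limma without trend. Dad1, a subunit of the oligosaccharyltransferase, had 42.9, 38.8 and 41.4 FPKM in CON and 56.7, 60.4 and 58.8 FPKM in 4H, and rose by 0.51 (SE 0.05, limma adjusted p = 4.94e-05). Stt3b, a catalytic subunit of the same enzyme, had 48.9, 48.5 and 50.3 FPKM in CON and 42.8, 43.5 and 46.4 FPKM in 4H, and fell by 0.15 (SE 0.04, limma adjusted p = 0.0143). Each gene had groups that did not overlap, and the call of Stt3b was lost without CON replicate 3 (adjusted p = 0.0527).

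Of 13 genes of the COPII coat, which buds vesicles that carry folded cargo from the ER, 6 rose and 0 fell, with a median log2 fold change of 0.20. At an unadjusted p of at most 0.05, 8 rose and 0 fell. Sec24d, a cargo-binding subunit needed for collagen export, had 32.8, 34.5 and 35.1 FPKM in CON and 46.5, 47.7 and 48.6 FPKM in 4H, without overlap, and rose by 0.47 (SE 0.04, limma adjusted p = 3.22e-05).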
